A study of Mus musculus with 94 samples.

Results

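The genes described here code for the parts of the ERK, JNK and p38 mitogen-activated protein (MAP) kinase pathways and for the proteins that hold these pathways in check. The list held 34 genes and was put together by pathway role, with earlier results of these data known: Ras and its adaptor and exchange factors, Raf kinases, MAP kinase kinases, MAP kinases, kinases downstream of them, the stress kinase Stk39, dual-specificity phosphatases, Sprouty and Spred inhibitors, and ETS transcription factors. Of the 34 genes, 29 had at least 1 probe set that the array annotation assigned to a single gene, 91 such probe sets in all, out of 18194 genes and 34958 single-gene probe sets on the array. Hras, Map2k7, Mapk3, Rps6ka2 and Etv1 had none and were not analysed here. Mapk3 codes for an ERK, so the list holds an ERK only through its activators, targets and inhibitors. Male C57BL6 mice 11 weeks old, either wild type (wt) or lacking the DNA repair gene Mgmt (Mgmt-/-), received a single intraperitoneal dose of 20 mg/kg methylazoxymethanol (MAM) or vehicle, and brain RNA was taken 6, 24, 48 or 168 hr later. MAM is the active part of the cycad toxin cycasin and methylates DNA, and the protein made from Mgmt removes methyl groups from guanine. The 16 groups of genotype, agent and time held 6 mice each, except 5 in wt vehicle at 48 hr, in wt MAM at 168 hr and in Mgmt-/- MAM at 168 hr, and every mouse was 1 array.

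In a MAP kinase pathway a signal at the cell surface is passed through a chain of kinases, each of which phosphorylates the next. Growth factor receptors act through the adaptor Grb2 and the exchange factors Sos1 and Sos2 on Ras, which recruits Raf, and Raf acts through Map2k1 and Map2k2 on ERK. Map2k4 activates JNK, whose genes are Mapk8, Mapk9 and Mapk10, and also p38, whose main gene is Mapk14. Active ERK switches on the transcription of several of its own inhibitors, among them Dusp6, Sprouty and Spred genes, and of the ETS factors Etv4 and Etv5, so the mRNA levels of these genes are often read as a record of ERK signalling. In brain these pathways are known for their part in synaptic plasticity and in the response of neurons to stress. The arrays measured mRNA and not phosphorylation, so kinase activity itself was not measured.

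Values are deposited log2 intensities, in which a difference of 1 is a doubling. A probe set is a group of short probes against one stretch of a transcript, and several of these genes have more than 1 probe set. Which stretch each of them reads was not examined here. A probe set was called where limma gave a Benjamini-Hochberg adjusted p under 0.05 together with a fold change above 1.3. Only probe sets were tested whose genotype and treatment differences did not vary detectably (p above 0.15) between the 2 sets of animal numbers. The numbers begin with 1 or 3 against 7 or 9, and the sets were taken to stand for the study's 2 laboratories. That filter kept 39, 36, 73 and 58 of the 91 probe sets at 6, 24, 48 and 168 hr, and a gene was called where any of its probe sets was called. RNA came from whole tissue, so fewer cells of a type and less RNA per cell cannot be told apart.

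The tissue label was borne out by its markers in 93 of the 94 arrays. The median over 7 neuronal markers lay between 11.70 and 12.13 in these arrays, and its group means between 11.94 and 12.01, while the median over 11 liver genes had group means from 4.65 to 5.47. The remaining array, labelled MGMT.MAM.168.343, gave 4.70 for neurons and 13.67 for liver, and was left out throughout. The only Mgmt probe set measured 5.49 to 6.21 in wt and 5.09 to 6.45 in Mgmt-/- brain, so the genotypes overlapped and the probe set does not check the labels. Where it lies relative to the deletion is not known from the labels or methods.

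The genotypes and treatments also differed in a measure of RNA quality. The 3'/5' index is the mean difference between 3' and 5' control probe sets of Gapdh and beta-actin, and it is larger where labelled RNA is shorter. At 6 hr it lay between 0.417 and 0.460 in Mgmt-/- vehicle brains and between 0.570 and 0.750 in Mgmt-/- MAM brains, with no overlap. MAM minus vehicle was 0.199, 0.146, 0.117 and −0.0365 in Mgmt-/- brain at 6, 24, 48 and 168 hr, against 0.0643, 0.0630, 0.000578 and 0.0627 in wt brain. The Mgmt-/- difference passed an exact two-sided permutation test at 6 and 24 hr with p = 0.005, the smallest that 400 regroupings within the number sets can give, and at 48 hr with p = 0.01. At 168 hr the same exact test gave p = 0.675. In wt brain it gave p = 0.125, 0.02, 0.99 and 0.015 at the 4 times, so the index was also higher after MAM in wt brain at 24 and 168 hr (exact test, Benjamini-Hochberg adjusted p = 0.029 and 0.027). In vehicle brain the index was higher in Mgmt-/- than in wt by 0.120, 0.154, 0.0927 and 0.179, and after MAM by 0.255, 0.236, 0.209 and 0.0802. In every genotype comparison, and for MAM in Mgmt-/- brain at 6, 24 and 48 hr, the beta-actin pair differed more than the Gapdh pair (0.378 against 0.0199 for MAM at 6 hr). For MAM in wt brain the Gapdh pair differed more at 24 hr (0.0794 against 0.0467) and at 168 hr (0.0967 against 0.0287). At 6 hr the beta-actin pair differed more (0.0843 against 0.0443), and at 48 hr the pairs had opposite signs (Gapdh 0.0518, beta-actin −0.0507). Of the 49 calls of member probe sets given below, 14 were also called with the index as a covariate and 35 were not. The 14 were those of Dusp6 apart from vehicle at 48 hr, of Stk39 at 48 hr, of Nras and Etv5 at 168 hr, of Etv5 after MAM at 6 hr (1450082_s_at) and 48 hr (1420998_at), of Araf after MAM at 6 hr and in vehicle at 48 hr, of Mapk10 in vehicle at 48 hr and of Elk1 in vehicle at 24 hr. Its part in the results was not tested beyond this.

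**Figure D1:**
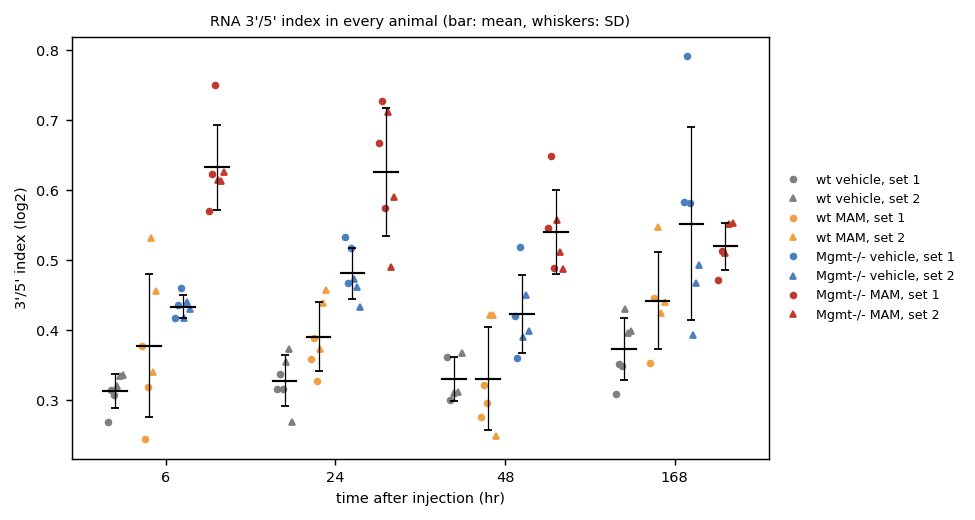
RNA 3'/5' index of each array (vertical axis, log2 units) in the 16 groups of genotype, agent and time, with the group mean and SD. At 6 hr the Mgmt-/- MAM arrays, between 0.570 and 0.750, lie above all Mgmt-/- vehicle arrays.

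Promoter sequences are shown for Dusp6, Etv5, Stk39 and Elk1, the 4 genes whose values are plotted for every mouse, each from 250 bases before to 50 bases after the annotated start, 5′ to 3′ on the gene's strand, from RefSeq on GRCm38.p6. Capitals mark the GC box GGGCGG, on either strand.
Dusp6, chr10:99262981-99263280, plus strand: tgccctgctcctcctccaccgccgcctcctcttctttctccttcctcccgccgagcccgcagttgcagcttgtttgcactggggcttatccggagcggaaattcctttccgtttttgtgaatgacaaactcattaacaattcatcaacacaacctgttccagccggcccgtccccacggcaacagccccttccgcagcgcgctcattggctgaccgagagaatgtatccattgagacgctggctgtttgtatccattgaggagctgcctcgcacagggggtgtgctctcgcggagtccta
Etv5, chr16:22439521-22439820, minus strand: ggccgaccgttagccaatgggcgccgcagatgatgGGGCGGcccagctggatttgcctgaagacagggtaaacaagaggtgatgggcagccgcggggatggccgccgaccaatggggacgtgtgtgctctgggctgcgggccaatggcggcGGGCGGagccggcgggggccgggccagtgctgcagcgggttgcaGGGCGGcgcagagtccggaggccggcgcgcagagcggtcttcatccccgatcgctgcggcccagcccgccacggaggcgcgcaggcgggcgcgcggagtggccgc
Stk39, chr2:68471932-68472231, minus strand: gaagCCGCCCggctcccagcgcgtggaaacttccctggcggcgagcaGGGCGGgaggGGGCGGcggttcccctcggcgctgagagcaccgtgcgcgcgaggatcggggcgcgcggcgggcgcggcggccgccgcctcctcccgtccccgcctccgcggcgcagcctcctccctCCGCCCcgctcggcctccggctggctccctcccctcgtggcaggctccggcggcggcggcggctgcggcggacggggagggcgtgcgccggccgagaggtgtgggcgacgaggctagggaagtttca
Elk1, chrX:20950559-20950858, minus strand: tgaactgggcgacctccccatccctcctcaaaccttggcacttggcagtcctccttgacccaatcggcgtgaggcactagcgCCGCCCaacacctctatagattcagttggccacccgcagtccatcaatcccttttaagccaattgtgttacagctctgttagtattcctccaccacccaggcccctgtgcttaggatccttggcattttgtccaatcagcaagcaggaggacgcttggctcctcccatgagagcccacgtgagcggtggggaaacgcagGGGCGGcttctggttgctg
The GC box occurred 3 times in the Etv5 window printed, 4 times in the Stk39 window, 2 times in the Elk1 window and not in the Dusp6 window. Over all 32851 promoter windows of this length 35.7% held a GC box on either strand, against 20 of the 38 windows of the 29 members with an entry, or 52.6%. The ETS-type motif CCGGAA was in 14.9% of all windows and 21.1% of member windows, the CRE core TGACG in 20.8% and 23.7%, and the AP-1 site TGANTCA in 7.81% and 2.63%. None of these 3 motifs was in the 4 windows printed. Base composition differed along with these shares, with a median GC content of 52.7% over all windows and 61.3% over member windows, and GC contents of 57.3% for Dusp6, 74.0% for the printed Etv5 window, 80.0% for Stk39 and 57.3% for Elk1. Etv5 has a second annotated start, whose window at chr16:22438319-22438618 on the same strand held no GC box and none of the other motifs and had a lower GC content. A match describes letters and not a bound site.

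Counted over the 4 times, 18 of the 29 measured genes were called in at least 1 comparison, through 22 probe sets and 49 calls. Of all genes tested at any time, 21.5% were called in at least 1 comparison. Of these calls 45 were lower in the Mgmt-/- or MAM group and 4 were higher, and all 49 had the same sign in both number sets. The laboratory filter had already removed probe sets whose differences varied between the number sets, so this agreement was largely set in advance. In 29 of the 48 calls between 2 groups the animals of the groups did not overlap. Calls were chosen by a small adjusted p and a fold above 1.3, which favours groups without overlap. The share without overlap over all genes was not counted. Only 14 of the 49 calls fell on the gene's brightest probe set. At each time the comparisons share groups (Mgmt-/- MAM brains enter 3 of them), so their counts are not independent of each other.

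**Figure D2:**
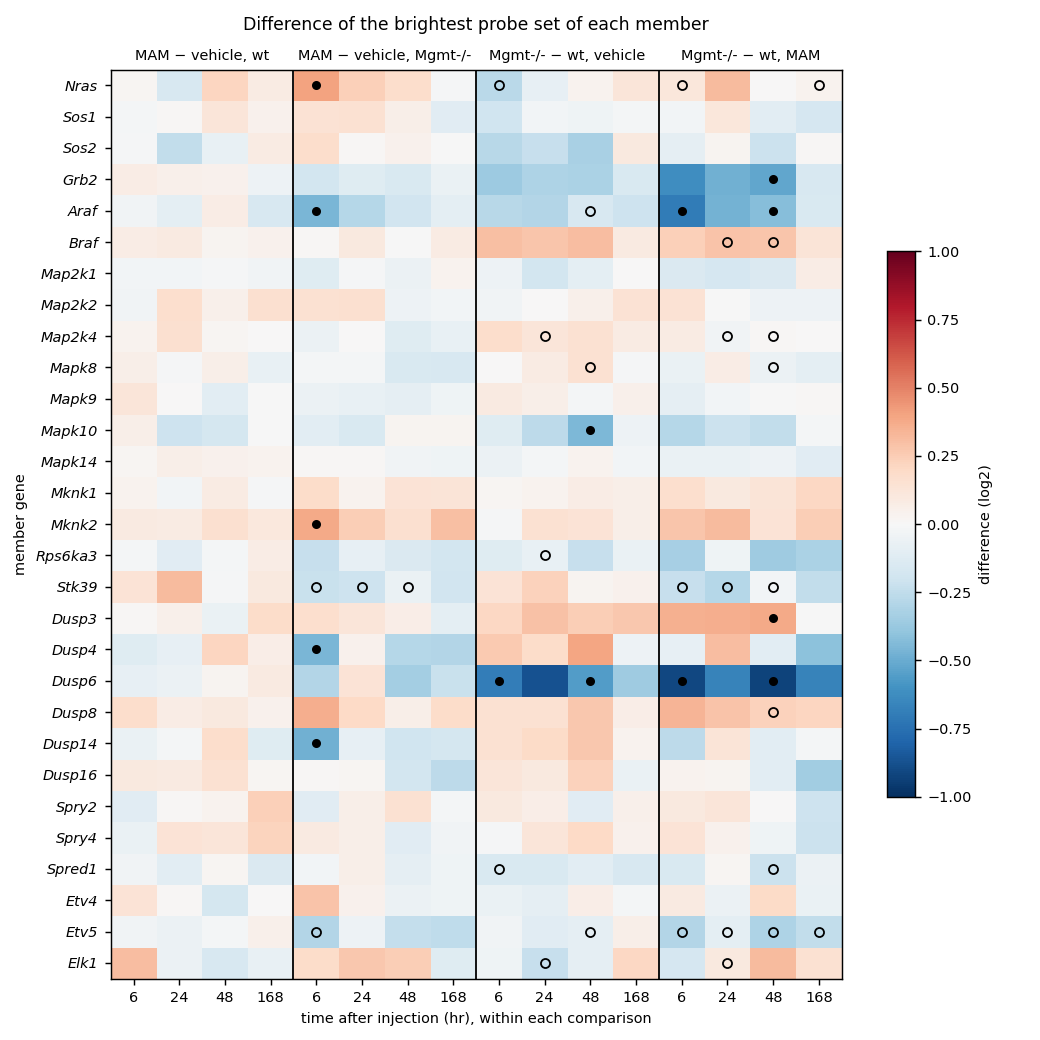
Difference in log2 intensity of each gene's brightest probe set (colour) for the 29 measured genes (rows) in the comparisons at 6, 24, 48 and 168 hr (columns). Filled dots mark genes whose brightest probe set was called and open circles those called only through another probe set, as Etv5 at all 4 times after MAM.

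Whether MAM changed these mRNAs in brain with intact repair was the first question, and in wt brain 0 of the 29 genes were called at any time. Of all genes tested in wt brain 0% were called at 6 hr, 0% at 24 hr, 0% at 48 hr and 0% at 168 hr. At an unadjusted p under 0.05 limma gave 3, 8, 12 and 4 of the 25, 19, 29 and 26 members tested at the 4 times. A member counted here if any of its probe sets passed, and the share over all genes was not counted. The smallest adjusted p were 0.867, 0.493, 0.182 and 1.00. Without the laboratory filter the count was also 0. The member differences in wt brain ran from −0.62 to 0.49.

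In Mgmt-/- brain 7 members were called after MAM, 5 lower and 2 higher, all of them at 6 hr. Of all genes tested 3.01% were called in this comparison at 1 or more of the 4 times. The lower ones were Araf, Stk39, Dusp4, Dusp14 and Etv5, and the higher ones Nras and Mknk2. At 6 hr 2.09% of all tested genes were called lower and 0.807% higher (2.62% either way without the filter), and of the 25 tested members 5 were called lower and 2 higher. Since the members were chosen with earlier results known, a share above that of all genes can follow from the choice, here and in the comparisons of the genotypes. Stk39 alone was called at 24 hr, where the shares were 0.961% lower and 0.112% higher (1.27% without the filter), and at 48 hr, where they were 0.778% and 0.0551% (1.23%). None was called at 168 hr, with 0.47% and 0.384% (0.984%) of all genes called. There 7 of the 26 members tested had an unadjusted limma p under 0.05, and Mknk2 differed by 0.30 with an adjusted p of 0.0483 but a fold under 1.3. Without the filter 6 of the 7 genes were called, since Dusp4 had an adjusted p of 0.067. The count fell to 4 without the mouse MGMT.VEH.6.905, and it was 1 when the index of RNA quality entered the fit. None of the 8 probe sets called at 6 hr was called with the index, with differences of 0.50 for Nras, −0.36 for Araf, 0.36 for Mknk2, −0.29 for Stk39, −0.39 for Dusp4, −0.19 for Dusp14, and −0.51 and −0.48 for Etv5 (adjusted p from 0.19 to 0.71). Over the 29 members the brightest probe sets split into 14 higher and 15 lower at 6 hr, with a median of −0.02 against 0.02 over all genes, and they ran from −0.48 to 0.40. No test was made of the list as a whole. Of the 10 other probe sets of the 7 called genes, 4 had the same sign as a called one.

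The called members are given from the top of the ERK chain downwards. Nras, a Ras switch, measured 7.83, 8.42 and 8.50 (lowest, median, highest of 6 mice) in vehicle and 8.57, 8.69 and 8.74 after MAM in its brightest probe set, 1422687_at. The groups did not overlap, and Nras rose 1.32-fold (log2 0.40, SE 0.09, adjusted p = 0.013). Araf, a Raf kinase, went the other way. Its brightest probe set, 1435566_s_at, measured 10.05, 10.18 and 10.21 in vehicle and 9.53, 9.63 and 10.01 after MAM, again without overlap. Araf fell 1.37-fold (−0.46, SE 0.07, adjusted p = 0.00082). Mknk2, a kinase that ERK and p38 activate and that phosphorylates the translation factor eIF4E, measured 8.27, 8.39 and 8.56 in vehicle and 8.64, 8.79 and 9.01 after MAM. It rose by 0.38 (SE 0.07, adjusted p = 0.0017), and every MAM mouse was above every vehicle mouse.

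Among the inhibitors and targets, Dusp14, a phosphatase that removes phosphate from MAP kinases, fell by 0.48 at 6 hr (SE 0.08, adjusted p = 0.0014). Its values were 8.60, 8.85 and 9.02 in vehicle and 8.18, 8.32 and 8.54 after MAM, with no overlap. Dusp4, a nuclear phosphatase of the same family, measured 5.27, 5.76 and 5.87 in vehicle and 4.86, 5.21 and 5.66 after MAM. The groups overlapped, and Dusp4 fell by 0.46 (SE 0.13, adjusted p = 0.038). Etv5, an ETS factor, moved in 2 of its 3 probe sets. In 1420998_at it measured 5.62, 6.32 and 6.52 in vehicle and 5.19, 5.50 and 6.24 after MAM, and it fell by 0.68 (SE 0.15, adjusted p = 0.011), and in 1450082_s_at it fell by 0.50 (SE 0.11, adjusted p = 0.0063). The groups overlapped in both. Dusp6 at 6 hr differed by −0.30 (adjusted p = 0.12) and was not called.

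**Figure D3:**
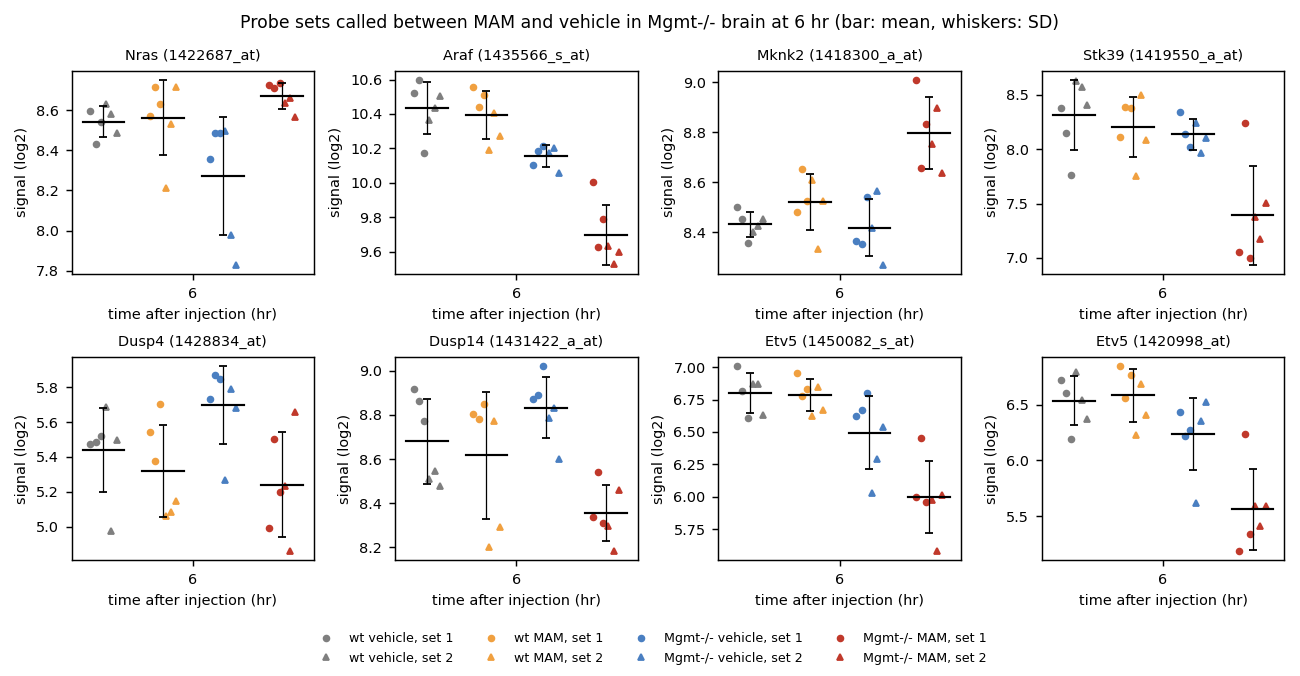
Log2 intensity of each mouse at 6 hr in wt and Mgmt-/- brain with either agent, with group means and SD. Shown are the 8 probe sets called between MAM and vehicle in Mgmt-/- brain. Nras and Mknk2 lie higher after MAM and the other 6 probe sets lower, and the groups overlap for Stk39, Dusp4 and both Etv5 probe sets.

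Stk39 was the member called most often after MAM. It codes for SPAK, a Ste20-type kinase known for regulating ion cotransporters and reported to bind p38. Its probe set 1419550_a_at measured 7.96, 8.12 and 8.34 in Mgmt-/- vehicle and 7.002, 7.276 and 8.239 in Mgmt-/- MAM brain at 6 hr, overlapping through a single high MAM mouse, and fell by 0.74 (SE 0.17, adjusted p = 0.011). With the index as a covariate the 6 hr difference in this probe set was −0.29 (adjusted p = 0.71). At 24 hr the values were 7.90, 8.14 and 8.31 against 7.10, 7.43 and 7.85, and Stk39 fell by 0.69 (SE 0.12, adjusted p = 0.0036), with an index-adjusted difference of −0.73 that was not called (adjusted p = 0.11). At 48 hr they were 7.89, 8.09 and 8.56 against 7.07, 7.30 and 7.73, and it fell by 0.83 (SE 0.14, adjusted p = 0.0027), which was also called with the index (−0.93, adjusted p = 0.037). At both later times every MAM mouse was below every vehicle mouse. In wt brain the same probe set differed by −0.11, −0.38 and 0.41 at these times, none of them called.

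Set against wt brain after MAM, Mgmt-/- brain differed by −0.81 at 6 hr, −0.47 at 24 hr and −1.05 at 48 hr, with adjusted p of 0.0016, 0.014 and 6.4e-06, while in vehicle the genotypes were not called apart at any time. With the index these differences in 1419550_a_at were −0.23, −0.54 and −1.23, and the one at 48 hr alone was called (adjusted p of 0.76, 0.24 and 0.0065). The difference of the MAM effect between the genotypes was called for Stk39 alone among the members, at 48 hr. The 5 wt vehicle mice measured 7.69, 7.74, 8.03, 8.20 and 8.23, and the wt MAM mice 7.81, 8.52 and 8.68 (lowest, median, highest), so wt values lay on the whole higher after MAM while Mgmt-/- values lay lower. The interaction was −1.25 (SE 0.20, adjusted p = 0.0020), with −1.44 and −1.05 in the number sets, and −1.34 (adjusted p = 0.0076) when the index entered the fit. At that time 1.69% of all tested genes had a called interaction, against 0.217% at 6 hr, 0.0772% at 24 hr and 0.126% at 168 hr, when no member was called. The brightest Stk39 probe set, 1419551_s_at, gave −0.03 for Mgmt-/- against wt after MAM at 48 hr where 1419550_a_at gave −1.05, so the probe sets of Stk39 did not move together. With the index 1419551_s_at was called at 6 hr, unlike without it. It then differed by −0.51 for MAM in Mgmt-/- brain (adjusted p = 0.046) and by −0.60 between the genotypes after MAM (adjusted p = 0.0060). Its interaction with the index was −0.56 (adjusted p = 0.021). The number of members with a called interaction was 3 without WT.VEH.48.115, and it was 2 without MGMT.MAM.6.325, MGMT.MAM.6.327, WT.MAM.6.725 or MGMT.MAM.48.965.

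Marker genes moved beside these differences. At 6 hr the 11 measured liver genes had a median difference of 0.65 for MAM against vehicle in Mgmt-/- brain, with Alb (2.31, adjusted p = 0.011) and Cyp2e1 (1.03, adjusted p = 0.016) called higher. The medians over the neuronal, astrocyte and endothelial lists were −0.01, 0.12 and −0.17, and of these lists only the neuronal Rbfox3 was called (−0.68, adjusted p = 0.016). That call was in 1427286_at, which is not its brightest probe set, and the brightest neuronal probe sets ran from −0.09 to 0.30. At 24 hr no marker was called, and 10 of the 11 liver genes were higher with a median of 0.47. At 48 hr the same Rbfox3 probe set was called lower after MAM in Mgmt-/- brain (−0.80, adjusted p = 0.0011), as was the erythroid gene Alas2 (−0.87, adjusted p = 0.0075). That Rbfox3 probe set also had a called interaction (−1.09, adjusted p = 0.0015). The neuronal median at 48 hr was −0.002, and the microglial and endothelial medians were −0.26 and −0.22, with 5 of 6 genes lower in each. The part of these markers in the member differences was not tested.

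The next question was whether these genes differ between the genotypes without MAM. In vehicle brain 10 members were called, all of them lower in Mgmt-/- brain, 3 at 6 hr, 3 at 24 hr and 5 at 48 hr, with Dusp6 called at 2 times. Over the 4 times 8.84% of all genes tested were called in this comparison, in either direction. The background was 3.98% lower and 1.47% higher at 6 hr (7.58% either way without the filter), 4.86% and 1.58% at 24 hr (9.99%), 3.38% and 1.95% at 48 hr (6.6%), and 0.119% and 0.0397% at 168 hr (0.731%). At 168 hr no member was called, and 8 of the 26 tested had an unadjusted limma p under 0.05. Without the filter Elk1 was called at 168 hr, and 12 members were called at any time. The members tested were 25, 19 and 29, and with the filter none was called higher. With the index of RNA quality in the fit 11 members were called, 6 of them among the 10, and not all were lower. Sos1 (0.48) and Mknk1 (0.41) were then called higher in Mgmt-/- brain at 6 hr, and Braf (0.46), Dusp4 (0.56) and Dusp14 (0.39) at 48 hr. The members also carry more probe sets for each gene than the array as a whole (91 over 29 genes against 34958 over 18194), and a gene with more probe sets can be called in more ways.

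Cell type markers moved beside the vehicle differences as well. At 6 hr Cnp, an oligodendrocyte gene, was called lower in Mgmt-/- brain (−0.64), with 5 of 5 oligodendrocyte genes lower in their brightest probe sets (median −0.14). At that time 6 of 6 microglial genes (median −0.23) and 9 of 11 liver genes (median −0.49) were lower, none of them called. At 24 hr Cnp (−0.43), the astrocyte glutamate transporter Slc1a2 (−0.54) and the liver gene Hpx (−0.64) were called lower, while the medians of their lists were −0.07, −0.14 and −0.42. At 48 hr Gja1, the astrocyte gap junction protein, was lower in 3 probe sets by up to −1.48 and Mog, an oligodendrocyte gene, by −0.42. The neuronal Rbfox3 (0.53, again in 1427286_at) and microglial Itgam (0.52) were higher. At 168 hr no marker was called. Their part in the member differences was not tested.

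After MAM the comparison of the genotypes gave the largest counts. At 6 hr 5 members were lower in Mgmt-/- brain, at 24 hr 5, at 48 hr 9 lower and 2 higher, and at 168 hr 2 lower, 13 different genes in all, where 18.4% of all genes tested were called at 1 or more times. Of all tested genes 7.18% were lower and 3.15% higher at 6 hr (12.6% either way without the filter), 6.11% and 1.9% at 24 hr (12.6%), 11% and 4.05% at 48 hr (16%), and 1.77% and 0.932% at 168 hr (4.53%). At 48 hr all 29 members were tested. Without the filter 15 members were called, with the index in the fit 7, and from the brightest probe sets alone 4. At 48 hr 21 of the 31 other probe sets of the 11 called genes had the same sign as a called one, 8 of them with an unadjusted limma p under 0.05.

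Beside these differences 11 of 11 liver genes were higher in Mgmt-/- brain at 6 hr (median 0.43), with Alb (1.92), Apoa1 (1.32) and Cyp2e1 (0.87) called, and 10 of 11 at 24 hr (median 0.43), with Alb (1.59), Apoa1 (0.71) and Serpina1b (1.13) called. Cnp was called lower at 6 hr (−0.80) and 24 hr (−0.79), in an oligodendrocyte list with a median of −0.08 at both times and 2 of 5 and 1 of 5 genes higher. The astrocyte genes Slc1a3 (−0.56 at 6 hr, −0.49 at 24 hr) and Slc1a2 (−0.73 at 24 hr) were called lower in a list with medians of −0.04 and −0.10 and 1 of 6 genes higher at both times. The brightest astrocyte probe sets ran from −0.14 to 0.19 at 6 hr, so the Slc1a3 call was in another probe set. The endothelial genes Cldn5 at 6 hr (−0.38) and Pecam1 at 24 hr (−0.49) were called lower and the neuronal Syt1 at 6 hr (0.64) higher. The Syt1 call was not in its brightest probe set, since the brightest neuronal ones ran from −0.11 to 0.17 at 6 hr. The neuronal medians were within 0.05 of 0 at every time. At 48 hr 2 of 5 tested astrocyte markers, 2 of 5 oligodendrocyte, 2 of 6 microglial, 1 of 6 neuronal and 1 of 4 endothelial markers were called lower and none higher, Gja1 by the most (−2.09). At 168 hr Aqp4, Cnp, Tek and Alas2 were called lower, and all 6 microglial genes (median −0.42) and all 6 endothelial genes (median −0.29) were lower in their brightest probe sets. Their part in the member differences was not tested.

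**Figure D4:**
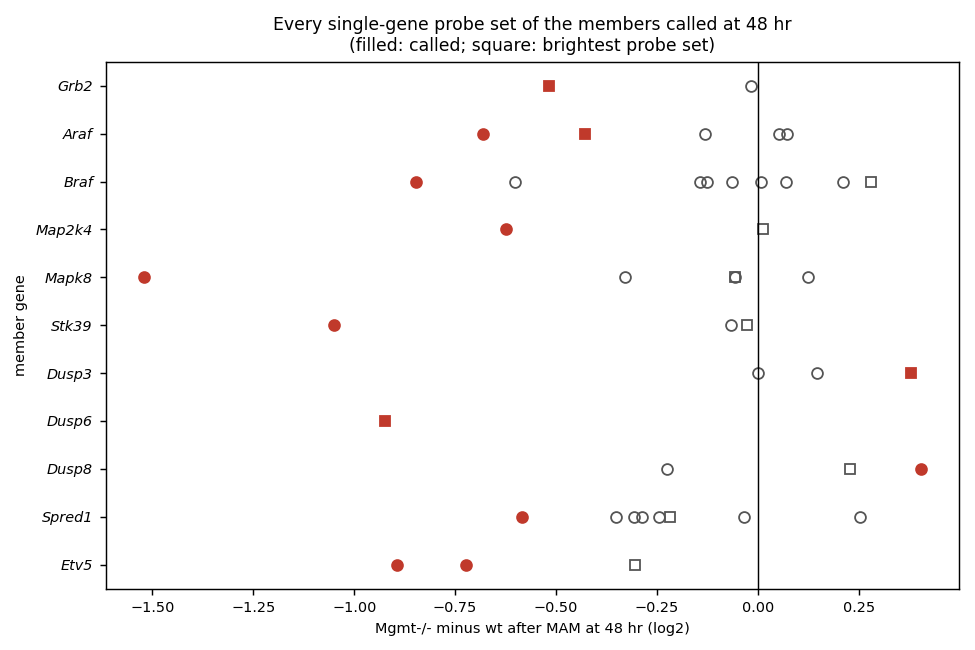
Difference in log2 intensity between Mgmt-/- and wt brain after MAM at 48 hr for every single-gene probe set of the 11 genes called (horizontal axis in log2 units). Filled symbols are the 13 called probe sets and squares each gene's brightest one, and 21 of the 31 open symbols lie on the same side of 0 as a called probe set of their gene.

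Upstream, Nras was lower in Mgmt-/- brain through its probe set 1422688_a_at. In vehicle at 6 hr it measured 6.07, 6.36 and 6.63 in wt and 5.77, 5.88 and 6.14 in Mgmt-/- brain, overlapping, a difference of −0.47 (SE 0.11, adjusted p = 0.0077). After MAM at 6 hr the difference was −0.49 (adjusted p = 0.0028). With the index as a covariate these Nras differences were −0.28 (adjusted p = 0.21) and −0.07 (adjusted p = 0.89). At 168 hr after MAM another Nras probe set, 1454060_a_at, gave 7.88, 7.90, 7.91, 7.91 and 7.99 in the 5 wt mice and 7.13, 7.36, 7.61, 7.64 and 7.71 in the 5 Mgmt-/- mice. These did not overlap, and the difference was −0.43 (SE 0.11, adjusted p = 0.036). The brightest Nras probe set gave differences of 0.11 and 0.03 in the same comparisons after MAM, the opposite sign. Grb2, the adaptor between receptors and Sos, was lower after MAM at 48 hr in its brightest probe set. It measured 9.04, 9.21 and 9.33 in wt and 8.46, 8.66 and 8.88 in Mgmt-/- brain, with no overlap (−0.52, SE 0.08, adjusted p = 5.6e-05). Without the laboratory filter Grb2 was also called at 6 hr (−0.62) and 24 hr (−0.48).

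Both Raf genes were lower in some of their probe sets. Araf in its brightest probe set measured 10.19, 10.42 and 10.55 in wt and 9.53, 9.63 and 10.01 in Mgmt-/- brain at 6 hr after MAM, without overlap (−0.70, SE 0.07, adjusted p = 2.9e-07), and at 48 hr 10.29, 10.35 and 10.48 against 9.85, 9.89 and 10.17 (−0.43, SE 0.09, adjusted p = 0.0020). The 6 hr difference in Araf was called with the index as a covariate (−0.57) and the 48 hr one was not (−0.16, adjusted p = 0.69). A second Araf probe set, 1428607_at, was lower in vehicle at 48 hr, with 8.46, 9.04, 9.44, 9.47 and 9.48 in the 5 wt mice against 7.60, 8.17 and 8.95 in Mgmt-/- brain (−0.94, SE 0.22, adjusted p = 0.014). Braf, the Raf kinase most prominent in neurons, was lower after MAM in 1456505_at. The difference was −0.65 at 24 hr (adjusted p = 0.0037) and −0.85 at 48 hr, where the adjusted p was 0.00015. At 48 hr that probe set measured 6.91, 7.48 and 7.93 in wt and 6.30, 6.67 and 6.97 in Mgmt-/- brain, overlapping slightly. The brightest Braf probe set differed by 0.28 at both times, higher in Mgmt-/- brain. At 48 hr that reached an adjusted p of 0.032, short of the fold threshold. Without the laboratory filter Braf was called higher in 1435480_at, by 0.55 after MAM at 6 hr and 0.39 in vehicle at 48 hr. These had adjusted p of 0.0014 and 0.026, and the vehicle difference was also called with the index (0.46, adjusted p = 0.033). Also without the filter, 1425693_at was called lower after MAM at 24 hr (−0.53) and 48 hr (−0.60).

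Of the kinases in the middle, Map2k4, which activates JNK and p38, was lower in 1426233_at. In vehicle at 24 hr it differed by −0.40 (SE 0.12, adjusted p = 0.039), and after MAM by −0.56 at 24 hr (adjusted p = 0.0026) and by −0.62 at 48 hr, where the adjusted p was 0.0013. After MAM at 24 hr the Map2k4 values were 8.70, 9.04 and 9.45 in wt against 8.18, 8.51 and 8.63 in Mgmt-/- brain, with no overlap. Its brightest probe set, 1451982_at, differed by −0.04 and 0.01 at these times. Mapk8, which codes for JNK1, gave the largest difference of any member call. Its probe set 1420931_at measured 5.04, 6.25 and 6.85 in wt and 4.28, 4.60 and 4.92 in Mgmt-/- brain after MAM at 48 hr, without overlap, a 2.87-fold difference (−1.52, SE 0.20, adjusted p = 6.7e-06). In vehicle at 48 hr the 5 wt mice measured 5.09, 5.46, 5.50, 5.87 and 5.99 and the Mgmt-/- mice 4.47, 4.76 and 4.98 (−0.84, SE 0.21, adjusted p = 0.019). With the index as a covariate the Mapk8 differences at 48 hr were −0.88 after MAM and −0.56 in vehicle, neither of them called (adjusted p = 0.17 and 0.19). After MAM the brightest Mapk8 probe set, 1440856_at, differed by −0.06 at 48 hr. The probe set 1420931_at is dim, with a mean of 5.12. Without the laboratory filter it was also called lower at 6 and 24 hr with either agent, with differences from −1.24 to −0.86. Of these the vehicle difference at 24 hr was called with the index (−0.87, adjusted p = 0.032).

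Mapk10, the JNK gene known as mainly neuronal, was called in its brightest probe set in vehicle at 48 hr. The 5 wt mice measured 11.80, 11.87, 11.96, 11.996 and 12.04 and the Mgmt-/- mice 11.30, 11.45 and 11.71, with no overlap (−0.45, SE 0.09, adjusted p = 0.0059). The Mapk10 difference was also called with the index as a covariate (−0.51, adjusted p = 0.011). Mapk9, the remaining JNK gene, and Mapk14, the p38 gene, were called only without the laboratory filter. Mapk9 was then lower in Mgmt-/- brain in 2 probe sets, in vehicle at 24 hr and after MAM at 6, 24 and 48 hr, with differences from −0.74 to −0.46, and Mapk14 was lower in 1451927_a_at after MAM at 24 hr (−0.58) and 48 hr (−0.51). Downstream, Rps6ka3, which codes for the ERK-activated ribosomal S6 kinase RSK2, was lower in vehicle at 24 hr in 1452383_at. It measured 4.80, 4.93 and 5.27 in wt and 4.34, 4.57 and 4.72 in Mgmt-/- brain, near the dim end of the array (−0.42, SE 0.09, adjusted p = 0.0027).

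Dusp6, the cytoplasmic ERK phosphatase, was called at both times its single probe set, 1415834_at, passed the laboratory filter, with either agent. In vehicle at 6 hr it measured 8.55, 8.65 and 8.98 in wt and 7.78, 7.99 and 8.21 in Mgmt-/- brain (−0.69, SE 0.11, adjusted p = 0.00014). After MAM at 6 hr the values were 8.31, 8.64 and 8.80 against 7.12, 7.73 and 8.04 (−0.91, SE 0.11, adjusted p = 1.4e-06). In vehicle at 48 hr the 5 wt mice measured 8.38, 8.46, 8.50, 8.66 and 9.04 against 7.89, 8.06 and 8.22 in Mgmt-/- brain (−0.56, SE 0.13, adjusted p = 0.011). After MAM at 48 hr the values were 8.51, 8.61 and 8.83 against 7.13, 7.75 and 8.06 (−0.92, SE 0.12, adjusted p = 7.3e-06). In all 4 comparisons every Mgmt-/- mouse was below every wt mouse. With cyclic loess, however, Dusp6 was called in neither comparison of the genotypes at any time. Leaving out 1 animal lost the 6 hr call in 3 of 12 fits in vehicle and in 4 of 12 after MAM. The 48 hr call was lost in 0 of 11 fits in vehicle and in 2 of 12 after MAM. The difference stayed negative in all of these fits. At 6 hr the probe set passed the laboratory filter only narrowly. The Dusp6 probe set failed the laboratory filter at 24 and 168 hr, where the unfiltered differences were −0.87 in vehicle and −0.67 after MAM at 24 hr, and −0.35 and −0.67 at 168 hr. The vehicle difference at 168 hr was not called (adjusted p = 0.38), while the others were. With the index as a covariate Dusp6 remained called at 6 hr in vehicle (−0.70) and after MAM (−0.91) and at 48 hr after MAM (−0.82), but not at 48 hr in vehicle (−0.51, adjusted p = 0.065).

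**Figure D5:**
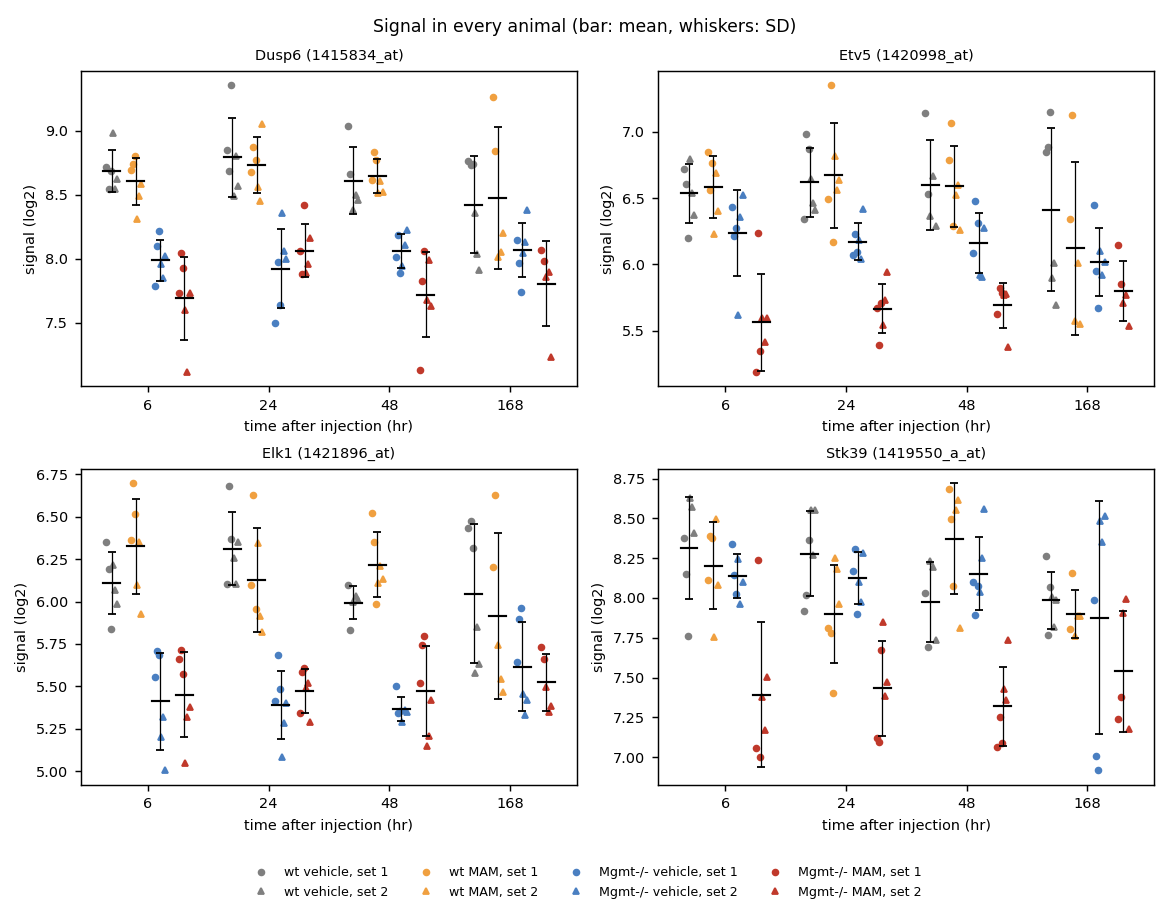
Log2 intensity of every mouse for Dusp6, Etv5 (1420998_at), Elk1 (1421896_at) and Stk39 (1419550_a_at) in the 16 groups. Circles are number set 1, triangles number set 2, bars the group mean and whiskers the SD. For Dusp6 the Mgmt-/- mice at 6 and 48 hr lie below the wt mice with either agent, and for Stk39 the Mgmt-/- MAM mice at 24 and 48 hr lie below the Mgmt-/- vehicle mice.

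Dusp3 and Dusp8 were the members higher in Mgmt-/- brain after MAM at 48 hr. Dusp3, also known as VHR, measured 9.43, 9.51 and 9.64 in wt and 9.67, 9.91 and 10.10 in Mgmt-/- brain in its brightest probe set (0.38, SE 0.08, adjusted p = 0.00090). Dusp8, a phosphatase known for acting on JNK and p38, measured 6.68, 6.76 and 6.96 against 7.08, 7.19 and 7.32 in 1447346_s_at (0.40, SE 0.07, adjusted p = 0.00017). In both genes the groups did not overlap. Spred1, which blocks the activation of Raf by Ras, was lower in Mgmt-/- brain in 1423162_s_at. In vehicle at 6 hr it measured 7.66, 7.86 and 8.22 in wt and 7.29, 7.56 and 7.72 in Mgmt-/- brain (−0.40, SE 0.12, adjusted p = 0.035), and after MAM at 48 hr 7.712, 8.005 and 8.287 against 7.01, 7.45 and 7.75 (−0.58, SE 0.12, adjusted p = 0.0014). Both Spred1 comparisons overlapped, and the index-adjusted differences were −0.39 (adjusted p = 0.13) and −0.30 (adjusted p = 0.55).

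Etv5 was lower in Mgmt-/- brain after MAM at all 4 times in at least 1 probe set. In 1420998_at it measured 6.23, 6.63 and 6.84 in wt against 5.19, 5.50 and 6.24 in Mgmt-/- brain at 6 hr (−1.02, SE 0.15, adjusted p = 4.2e-05), 6.17, 6.60 and 7.35 against 5.39, 5.69 and 5.94 at 24 hr (2.01-fold, SE 0.14 in log2, adjusted p = 3.2e-05), and 6.26, 6.56 and 7.06 against 5.38, 5.77 and 5.82 at 48 hr (−0.89, SE 0.12, adjusted p = 1.3e-05). The groups touched at 6 hr and were apart at 24 and 48 hr. At 168 hr the other probe set, 1450082_s_at, measured 6.50, 6.53, 6.67, 6.79 and 7.17 in the 5 wt mice and 5.58, 5.75, 6.01, 6.43 and 6.52 in the 5 Mgmt-/- mice (−0.67, SE 0.13, adjusted p = 0.0064), with a slight overlap. In vehicle Etv5 was called at 48 hr alone (−0.46, SE 0.13, adjusted p = 0.039). The brightest Etv5 probe set, 1428142_at, had the same sign after MAM but smaller differences, from −0.31 to −0.10, and was not called.

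Elk1, an ETS factor that ERK phosphorylates directly, was lower in 1421896_at at 24 hr with either agent. In vehicle it measured 6.10, 6.30 and 6.68 in wt and 5.09, 5.41 and 5.69 in Mgmt-/- brain (−0.92, SE 0.11, adjusted p = 6.7e-06), and after MAM 5.82, 6.03 and 6.63 against 5.29, 5.50 and 5.61 (−0.66, SE 0.11, adjusted p = 0.00028). Neither comparison overlapped. The probe set failed the laboratory filter at the other times, and without it Elk1 was called in all 8 comparisons of the genotypes, with differences from −0.92 to −0.39. The brightest Elk1 probe set, 1421897_at, had the same sign in vehicle at 24 hr, where it differed by −0.23 (adjusted p = 0.24 without the laboratory filter, which it failed). After MAM it had the opposite sign, with 0.10 at 24 hr and 0.32 at 48 hr (adjusted p = 0.041, fold under 1.3).

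Of the 29 members, 9 were called in no comparison, with or without the laboratory filter: Sos1, Sos2, Map2k1, Map2k2, Mknk1, Dusp16, Spry2, Spry4 and Etv4. With the index in the fit Sos1 (1421885_at, 0.48, adjusted p = 0.021) and Mknk1 (1417631_at, 0.41, adjusted p = 0.0085) were called in vehicle at 6 hr. Both were higher in Mgmt-/- brain. Sos1 was also called with cyclic loess, and Sos1, Sos2, Map2k2, Mknk1, Spry4 and Etv4 in number set 2 alone. In their brightest probe sets the MEK genes Map2k1 and Map2k2 differed by −0.18 to 0.07 and by −0.05 to 0.17 over all comparisons, and the Sprouty genes Spry2 and Spry4 by −0.21 to 0.24 and −0.21 to 0.22. Etv4, the close relative of Etv5, differed by −0.18 to 0.29. A p that misses the threshold does not show that these genes were equal. Among vehicle brains alone, tested for differences among the 4 times over all 45101 probe sets, no member was called in either genotype, with 5 of 91 probe sets at an unadjusted limma F-test p under 0.05 in each. The smallest adjusted p was 0.354 in wt and 0.486 in Mgmt-/- brain, and 0.214% and 0% of all genes were called.

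Of 87 further genes of these pathways, listed by their known roles with earlier results of these data known, 76 were measured. After MAM in Mgmt-/- brain 1 of 46 tested was called at 6 hr, Dusp7, another ERK phosphatase (−0.48, adjusted p = 0.010), beside 2.09% of all genes lower, and none at 24, 48 or 168 hr. None was called in wt brain after MAM. In vehicle brain 2 were higher and 6 lower in Mgmt-/- brain at 6 hr, 0 and 5 at 24 hr, 3 and 6 at 48 hr, and 0 and 0 at 168 hr, of 46, 56, 69 and 60 tested. Of all genes 1.47% were higher and 3.98% lower at 6 hr, 1.58% and 4.86% at 24 hr, and 1.95% and 3.38% at 48 hr. After MAM 6 were higher and 8 lower at 6 hr, 0 and 9 at 24 hr, 3 and 15 at 48 hr, and 3 and 1 at 168 hr, beside 3.15% and 7.18%, 1.9% and 6.11%, 4.05% and 11%, and 0.932% and 1.77% of all genes. Map3k5, the stress kinase ASK1 upstream of JNK and p38, was lower at 6 hr, with −0.60 in vehicle (adjusted p = 0.00038) and −0.93 after MAM (adjusted p = 4.2e-07). Mapk8ip1, a JNK scaffold, gave −0.59 and −0.65 in 1425679_a_at at that time, but 0.54 after MAM in 1440619_at. Jun, the transcription factor that JNK phosphorylates, gave −0.63 and −0.69. Atf2, a target of JNK and p38, was lower at 24 hr, with −1.41 in vehicle and −1.76 after MAM (adjusted p = 7.2e-09 and 4.8e-11). Spred2, a relative of Spred1, was higher at 6 hr, with 0.91 in vehicle and 1.35 after MAM. Over 12 immediate early genes, which neuronal activity and ERK switch on, none was called after MAM in either genotype, with 6, 4, 5 and 3 of the 12 tested at the 4 times. In Mgmt-/- brain the median difference over their brightest probe sets was 0.02 at 6 hr, 0.23 at 24 hr, −0.40 at 48 hr and −0.20 at 168 hr, with 6, 4, 12 and 10 of the 12 lower. The genotype difference of the MAM effect had medians of 0.09, 0.17, −0.68 and −0.54, and no immediate early gene had a called interaction. Egr3 was lower in Mgmt-/- than in wt brain after MAM at 48 hr (−0.42, adjusted p = 0.030).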

How the data were processed

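RNA of 94 samples labelled as mouse brain was hybridised to Affymetrix mouse genome arrays. The authors deposited log2 intensities of 45101 probe sets, made with RMA in the affy package per the labels (versions not given in the sources used here). These values were used as deposited. Groups came from genotype, agent and time in the labels, without the array MGMT.MAM.168.343.

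Each time was fitted alone in limma 3.58.1 (R 4.3.3) with 4 group means and the animal number set as covariate. Following the study's methods, a probe set entered a time's tests only if its 3 interactions with number set, taken in a joint F test, had p above 0.15. p-values were adjusted by Benjamini-Hochberg over kept probe sets. Vehicle brains were tested across times by a moderated F test on 93 arrays. The fit was tested on simulated data. Genes came from the platform annotation, and probe sets listing several genes were set aside, with each gene's brightest probe set its main value. The named genes are those called with or without the laboratory filter. The members and all gene lists were chosen with earlier results of these data known. Precision is limited by how many arrays each group holds. The alternatives tried were no laboratory filter, an ordinary linear model, the RNA 3'/5' index as covariate, no fold threshold, brightest probe sets only, a floor of 5 log2 units, cyclic loess, array weights, that array kept, each number set alone and each animal left out.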

Additional observations from a re-analysis of the deposited data

Results flagged for a closer look

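Of the groups of 4 to 10 mice examined, 3 held a single sample apart from the rest, and chance sets a sample apart in about 1 group in 20. In Mgmt-/- vehicle brain at 6 hr, Dusp4 measured 5.27 in 1 mouse against 5.68 to 5.87 in the others, and Etv5 (1420998_at) measured 5.62 in 1 mouse against 6.22 to 6.52. In Mgmt-/- MAM brain at 6 hr the RNA 3'/5' index of 1 mouse was 0.75 against 0.57 to 0.625 in the other 5.

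The MAM effect on Stk39 (1419550_a_at) differed between the genotypes at 48 hr by −1.25 (limma interaction, adjusted p = 0.0020), since the probe set was lower after MAM in Mgmt-/- brain and differed by 0.41 in wt brain. The array MGMT.MAM.168.343, used in no comparison, had a median of 13.67 over the liver genes, against at most 7.24 in the other 93 arrays.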

How the results depend on the processing

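No paired analysis was possible because every animal has a number of its own and the groups share none. The 7 members called after MAM in Mgmt-/- brain became 1 when the RNA index entered the fit and 15 in number set 2 alone. The 10 called between genotypes in vehicle became 6 with an ordinary linear model, 2 with brightest probe sets only, 6 with cyclic loess and 21 in number set 2 alone. With the index they became 11, of which 6 were among the 10. The 13 called between genotypes after MAM became 7 with the index and 4 with brightest probe sets only. The 1 called interaction became 0 with brightest probe sets only, 2 with cyclic loess, 2 with array weights and 0 in number set 1 alone. The 0 called in wt brain after MAM became 3 in number set 2 alone. The 0 called among times became 4 in wt with array weights, and 10 in wt and 11 in Mgmt-/- in number set 2 alone. The causes were not tested. Leaving out each animal gave 4 to 7 (4 without MGMT.VEH.6.905), 8 to 12, 11 to 14, 1 to 3 (3 without WT.VEH.48.115), and 0 to 0 for MAM in wt brain and for both tests among times.

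Of the 49 calls, 48 were kept without the laboratory filter, 42 with an ordinary linear model, 14 with the index, 49 without a fold threshold, 15 with brightest probe sets only, 36 with cyclic loess, 42 with array weights, 19 in number set 1 alone and 37 in number set 2 alone, and with MGMT.MAM.168.343 kept the 2 calls at 168 hr were both lost. With a floor of 5 log2 units 48 of 48 were kept. Signs were opposite in the brightest probe set for genotype in vehicle in Mapk8 (0.0075 at 6 hr, 0.0797 at 24 hr, 0.154 at 48 hr), Map2k4 (0.123 at 24 hr), Mapk9 (0.0579 at 24 hr, for 2 probe sets) and Elk1 (0.203 at 168 hr). After MAM they were opposite in Nras (0.110 at 6 hr, 0.0340 at 168 hr), Map2k4 (0.0831 at 6 hr, 0.0135 at 48 hr), Braf (0.281 at 24 hr and 0.281 at 48 hr, for 2 probe sets), Mapk8 (0.0721 at 24 hr) and Elk1 (0.101 at 24 hr, 0.319 at 48 hr, 0.153 at 168 hr). For MAM in wt brain, where none was called, they were opposite in Araf (−0.101 at 24 hr), Mapk14 (0.0460 at 48 hr), Map2k2 (0.0506 at 48 hr) and Sos1 (0.0417 at 168 hr). With MGMT.MAM.168.343 kept, Dusp16 differed by 0.0633 after MAM in Mgmt-/- brain at 168 hr, the opposite sign.

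For the RNA 3'/5' index, MAM minus vehicle, the Gapdh pair alone gave 0.0794 in wt at 24 hr and 0.0199, −0.00703 and 0.0127 in Mgmt-/- brain at 6, 24 and 48 hr, and the beta-actin pair alone gave 0.0467, −0.0507 and 0.0287 in wt at 24, 48 and 168 hr. Leaving out each animal gave 0.0421 to 0.0899, 0.0471 to 0.0756, −0.0146 to 0.0293 and 0.0395 to 0.0859 in wt, and 0.173 to 0.218, 0.117 to 0.172, 0.0954 to 0.139 and −0.0542 to −0.0016 in Mgmt-/- brain at the 4 times. In wt the difference no longer passed the exact permutation test at 24 hr without WT.VEH.24.711 or WT.MAM.24.735, nor at 168 hr in 6 of the repeats that left out 1 animal, and it passed at 6 hr without WT.MAM.6.127 or WT.MAM.6.727.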
